A study of Rattus norvegicus with 15 samples.

Results

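The genes described here are those whose transcripts were most abundant in beating colonies grown from rat cardiac stem cells, compared with the stem cells themselves and with heart muscle cells taken from rats. They were chosen by their measured level in CPM, a gene's part of the library's summed counts scaled to the same total in every library. A gene qualified when its lowest CPM in the 3 colony libraries was at least 1 and at least 2 times its highest CPM in the 9 other libraries. Of 26276 genes in the table, 99 met both conditions, and 92 remained after genes without a symbol of their own and genes of certain named families were set aside. The 92 genes carry 91 symbols, because Omd has 2 identifiers, ENSRNOG00000039560 and ENSRNOG00000046658. The 7 set aside were Ces1d, Ces1e, Cesl1, Gsta1, Cyp2d4, Adipoq and Fkbp5.

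All libraries come from Wistar rats, with no genetic change named in the labels. The stem cell group (CSC, 3 libraries) consists of undifferentiated cells, 3 cultures of 1 clone. The colony group (iCM, 3 libraries) consists of the beating colonies derived from such cells. The neonatal group (nCM, 3 libraries) and the adult group (aCM, 3 libraries) are cardiomyocytes freshly isolated from hearts at postnatal day 1 to 2 and at 12 weeks. A further 3 libraries come from 3 other stem cell clones (cCSC1, cCSC2 and cCSC3), with 1 library per clone. The study set the colonies beside neonatal and adult cardiomyocytes, and set the clones beside each other. The labels do not say which animals or cultures the iCM, nCM and aCM libraries came from, so a p-value here speaks only to how far replicate libraries scatter, and that scatter may be technical.

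Glucocorticoids act through a nuclear receptor that binds DNA and raises the transcription of a well studied group of genes, among them Tsc22d3, Fkbp5, Errfi1 and Glul. Acute phase proteins are secreted plasma proteins, made mostly by liver, that glucocorticoids and cytokines induce together. Adipocytes store triglyceride in droplets coated by perilipins and CIDE proteins, and they secrete adipokines such as adiponectin, resistin and adipsin. Several further genes below belong to hepatic or renal detoxification, and others to the matrix around bone, cartilage and tendon.

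Counts per library summed to between 44.2 M and 48.5 M for iCM, between 35.4 M and 48.5 M for CSC, between 35.8 M and 43.3 M for nCM, and between 20.7 M and 26.0 M for aCM, which puts 3 counts at 0.0618 CPM in the deepest library and 0.145 in the shallowest. Of 12 cardiomyocyte markers 11 were found, and all 11 were detected in every iCM library. Their summed level was 8210 to 9420 CPM in iCM, 3480 to 6150 in nCM, 86900 to 113000 in aCM and 5.62 to 57.4 in CSC. Markers of other cell types were present in the colonies as well. The summed fibroblast markers (10 of 10 found) lay between 21900 and 24300 CPM in iCM and between 21600 and 29500 in nCM, the erythroid markers (5 of 7) between 17500 and 20900 and between 27800 and 37500, and the endothelial markers (10 of 10) between 2400 and 2810 and between 3780 and 4200. The leukocyte markers (10 of 10) summed to 152 to 182 CPM in iCM and 358 to 653 in nCM. Colony replicate 1 stood apart most in the skeletal muscle markers. It was the highest colony library in the adipocyte markers, at 113 CPM against 75.0 and 73.7. It was also the highest, by smaller ratios, in the cardiomyocyte, fibroblast, erythroid, endothelial and leukocyte markers. The 12 skeletal muscle markers summed to 20.5 CPM in iCM1, 926 in iCM2 and 1100 in iCM3, against 5.61 to 39.6 across the other 9 libraries. No marker in any list was at 0 in every colony library. In such bulk libraries, fewer cells of a type and less RNA per cell cannot be told apart.

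Together the 92 genes took 1.29%, 1.36% and 1.25% of all counts in iCM1, iCM2 and iCM3. The share was 0.188% to 0.222% in CSC, 0.221% to 0.226% in nCM and 0.199% to 0.25% in aCM. The library that came closest to the colonies was neonatal for 41 genes, adult for 31 and a stem cell culture for 20. The ratio of the lowest colony library to the highest other library had a median of 3.39. It reached 3 for 51 genes, 5 for 26, 10 for 10 and 20 for 3. These ratios chose the genes and are given as a description. Mean colony levels ran from 1.15 to 2354.5 CPM, with 65 genes at 10 CPM or more, 25 at 100 or more and 3 at 1000 or more. For 16 genes each of the 9 other libraries was under 1 CPM.

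**Figure D1:**
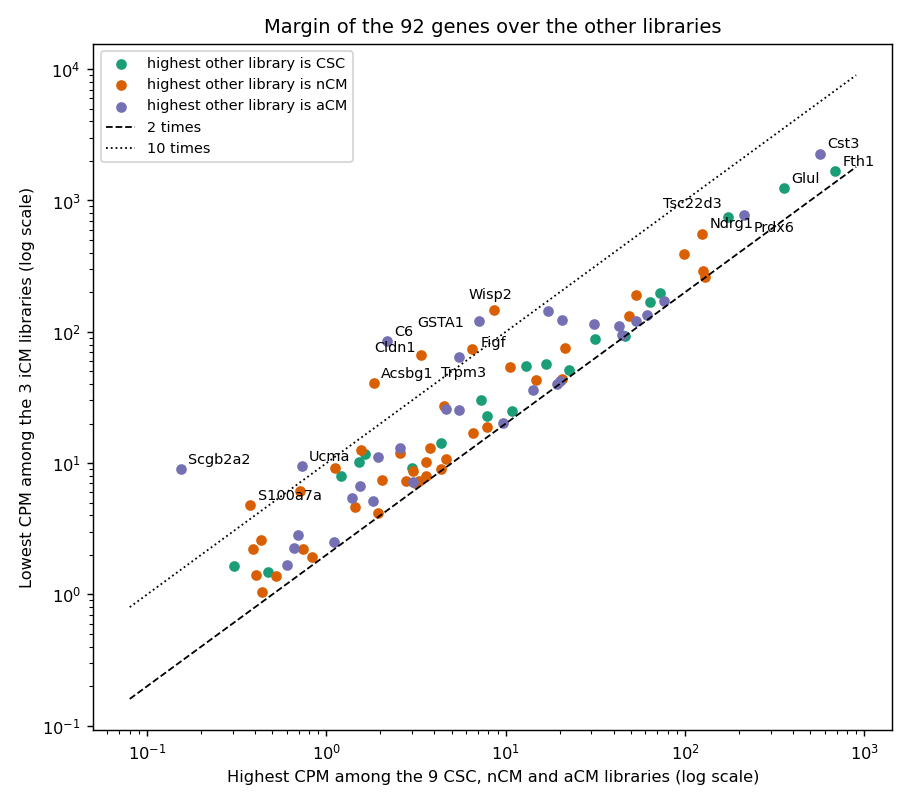
Lowest CPM among the 3 iCM libraries against the highest CPM among the 9 CSC, nCM and aCM libraries for each of the 92 genes, both on log axes, coloured by the group that holds the highest other library. The dashed and dotted lines mark 2 and 10 times; 10 genes lie on or above the dotted line, from Figf (11.5 times) to Scgb2a2 (58.0 times).

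The choice has an edge at 2 times. Just inside it were Abhd1 (2.09 times), Tp53inp1 (2.07), Agt (2.06), Slc48a1 (2.03) and Grina (2.01). Just outside were Sv2b (1.98), Sphk1 (1.98), Mst1 (1.96), Ankrd5 (1.95) and Bin2a (1.94). Sv2b missed because of 1 colony library, at 6.72 CPM in iCM1 against 44.8 in iCM2 and 31.6 in iCM3. Without iCM1 the same rule took 186 genes, 94 of them added, and 20 of the 94 belong to a list of 33 skeletal muscle development genes. Among the added genes were the myoblast fusion gene Tmem8c, the fast skeletal troponins Tnnc2 and Tnnt3, and the neuropeptide gene Gal. For 58 of the 94, iCM1 was at or below the highest other library. None of the 92 genes is in that skeletal muscle list.

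Of 7 complement and plasma proteins, C6 stood out. C6, a component of the membrane attack complex, was at 136, 84.9 and 87.1 CPM in the 3 colony libraries. It was at 0.198, 0.219 and 0.0913 CPM in CSC, at 0.913, 0.599 and 1.44 in nCM, and at 2.08, 2.18 and 2.18 in aCM. The lowest colony library was thus 38.9 times the highest other one, and adult libraries lay above neonatal ones. Against the heart cells, the other terminal complement gene with a sizeable level went the other way. C7, the next protein of the complex, was at 99.7 to 109 CPM in iCM but at up to 344 in nCM and 872 to 1420 in aCM, and its level in iCM was below both (log2 fold change -1.34 ± 0.22 SE, edgeR adjusted p = 0.000722, and -3.71 ± 0.24, adjusted p = 3.06e-08). In CSC, C7 was at 0.817 to 1.80 CPM, so iCM was above the stem cells for it as well (6.13 ± 0.29, edgeR adjusted p = 6.93e-10). Like C6, it lay higher in aCM than in nCM. C5, C8a, C8b and C9 were each at no more than 1.14 CPM in every library, and C8g was at 0.925 to 2.27.

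The acute phase gene Orm1, which encodes alpha-1-acid glycoprotein, was at 16.4, 12.6 and 12.7 CPM in iCM and at 0.102 to 1.55 in the other 9 libraries. Serpina3n, a serine protease inhibitor of the acute phase, was at 6.72, 8.46 and 7.72 CPM in iCM against 0.34 to 1.55 elsewhere. Both are known in rodents to respond to glucocorticoids. Haptoglobin (Hp), which binds free haemoglobin, was at 29.5, 18.8 and 19.2 CPM in iCM, with the highest other library at 7.86 (nCM1). Factor D (Cfd, also called adipsin), the protease of the alternative complement pathway, was at 42.1, 28.6 and 27.2 CPM, 6.04 times the highest other library. Angiotensinogen (Agt) was at 12.9, 8.99 and 10.6 CPM. All of these except Serpina3n were highest in iCM1.

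The sequences upstream of Orm1 and Serpina3n are shown because, of the 64 genes with a promoter sequence, they alone matched the glucocorticoid receptor element, here the letters GNACA and TGTNC with 3 bases of any kind between them. The sequences are those of RefSeq, build GRCr8, from 250 bases before to 50 bases after the annotated start, 5′ to 3′ on the gene's strand. Orm1 lies at chr5:81788259-81788558 on the + strand and Serpina3n at chr6:129088142-129088441 on the + strand. Capitals mark the receptor element in both, and in Orm1 also a C/EBP core (TTGCNNAA, read on the opposite strand, overlapping the end of the element) and a TATA box (TATAAA).
Orm1: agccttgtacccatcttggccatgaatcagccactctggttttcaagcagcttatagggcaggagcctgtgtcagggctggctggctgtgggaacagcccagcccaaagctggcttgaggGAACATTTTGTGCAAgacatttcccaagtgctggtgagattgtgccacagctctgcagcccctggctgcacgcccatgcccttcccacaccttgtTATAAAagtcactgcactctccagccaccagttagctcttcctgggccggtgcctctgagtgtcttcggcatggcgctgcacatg
Serpina3n: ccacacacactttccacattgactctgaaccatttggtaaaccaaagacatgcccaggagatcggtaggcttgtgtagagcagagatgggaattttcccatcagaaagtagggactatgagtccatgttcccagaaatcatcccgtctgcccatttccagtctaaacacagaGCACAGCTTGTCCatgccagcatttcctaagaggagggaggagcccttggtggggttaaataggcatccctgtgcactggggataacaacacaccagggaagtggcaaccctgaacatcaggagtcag
The element reads the same on both strands. It was present in 2 of 64 windows (3.12%) and in 116 of the 27457 windows of the whole RefSeq table (0.422%). A match describes letters and is no evidence of binding.

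Secreted matrix proteins and growth factors made up 11 of the genes. Wisp2, a CCN protein of the matrix, was at 148, 213 and 210.3 CPM in iCM and at 1.84 to 8.56 in the other libraries, where the groups did not separate. Its relative Nov was at 195, 200.01 and 189 CPM in iCM, with nCM next at 40.5 to 53.1, then aCM at 16.8 to 29.7 and CSC at 4.47 to 11.1. The CCN genes Cyr61 and Ctgf had high levels in several groups and did not qualify. Figf, which encodes the lymphatic growth factor VEGF-D, was at 93.8, 81.8 and 74.1 CPM in iCM against 0.428 to 6.45 elsewhere. Among its relatives, Vegfa was higher in aCM (461 to 695 CPM) than in iCM (123 to 151).

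Both identifiers of osteomodulin (Omd), a keratan sulphate proteoglycan of bone, behaved alike. They were at 13.03 to 14.8 and 25.4 to 35.0 CPM in iCM, and at no more than 2.56 and 5.47 CPM elsewhere. Reads shared between the 2 identifiers cannot be assigned with certainty. Ucma, a Gla protein of cartilage, was at 11.4, 9.43 and 9.97 CPM against at most 0.729. The angiogenesis regulator Ism1 was at 2.60, 10.3 and 8.82 CPM against at most 0.43. Follistatin (Fst), which binds activins, was at 67.8, 56.5 and 56.4 CPM in iCM, and next highest in CSC at 5.98 to 16.8.

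The secreted proteases Pappa and Pappa2, which cleave insulin-like growth factor binding proteins, both qualified narrowly. Pappa was at 52.0, 58.0 and 50.9 CPM in iCM. It was at 22.4 CPM in CSC1 but only at 0.978 and 1.84 in the other CSC cultures, so the cultures of 1 clone differed widely. Pappa2 was at 8.24, 7.03 and 8.59 CPM against at most 3.13. Cystatin C (Cst3), a secreted inhibitor of cysteine proteases, had more counts in each iCM library than any other of the 92 genes. That ranking also reflects transcript length, and in CSC and nCM Fth1 had more counts. Cst3 was at 2275, 2468 and 2320.3 CPM in iCM, 459, 330.2 and 566 in aCM, 277, 250.5 and 252 in nCM, and 120, 155 and 136 in CSC.

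The group of 9 cytokines and other secreted proteins held the widest margin. Scgb2a2, a secretoglobin, was at 10.4, 11.1 and 8.94 CPM in iCM, from 459, 537 and 420 counts. Each of the other 9 libraries held 0 to 4 counts of it. S100a7a, of the S100 calcium-binding proteins of skin, was at 5.92, 5.92 and 4.80 CPM against at most 0.377. Resistin (Retn), an adipokine of rodents, was at 12.2, 7.90 and 6.08 CPM against at most 0.712. Both genes were near the detection limit in most libraries outside the colonies.

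Il1rn, the interleukin 1 receptor antagonist, was at 80.5, 69.1 and 54.7 CPM in iCM, 12.8, 13.03 and 12.1 in CSC, 5.92, 7.98 and 8.81 in nCM, and 0.653, 1.19 and 1.35 in aCM. No library of one group overlapped with another group. The interleukins that it opposes were highest in nCM instead. Il1a and Il1b were lower in iCM than in nCM (log2 fold change -1.66 and -1.85), and Il1b was at 16.7 to 19.0 CPM in iCM. Both were higher in iCM than in CSC (1.88 and 5.90, edgeR adjusted p = 0.000755 and 1.06e-09). Against aCM, Il1b was higher in iCM (1.65, adjusted p = 1.87e-05) and Il1a was not called (0.85, adjusted p = 0.0674). Fibin, a secreted protein named for fin bud development in zebrafish, was at 90.5, 77.7 and 75.8 CPM in iCM, and at 6.81, 10.9 and 21.3 in nCM. Nucb2, the precursor of nesfatin, was at 292, 359 and 340.3 CPM.

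At the cell surface, the tight junction protein gene Cldn1 was at 66.4, 126 and 106 CPM in iCM and at 1.23 to 3.38 in all other libraries. Its relative Cldn5, an endothelial claudin, was at 49.6 to 62.1 CPM in iCM and at 109 to 190.0 in nCM. The epithelial claudin genes Cldn3 and Cldn4 were at no more than 0.204 and 0.384 CPM in iCM. The cadherin Cdh18 was at 11.8, 33.5 and 31.4 CPM against at most 1.65. Dpep1, a membrane dipeptidase of the renal tubule, was at 123, 161 and 151 CPM in iCM, 11.3, 8.73 and 20.69 in aCM, and 0.582 to 3.15 in nCM and CSC.

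Among 7 ion channel and calcium genes, the cation channel gene Trpm3 was at 92.2, 64.6 and 65.0 CPM in iCM against 1.41 to 5.49 elsewhere. Necab2, a neuronal calcium-binding protein, was at 13.4, 9.81 and 9.13 CPM against at most 1.11. The sodium-activated potassium channel gene Kcnt1 was at 10.8, 7.97 and 9.84 CPM against at most 1.21. Stim1, the calcium sensor of the endoplasmic reticulum that opens store-operated channels, was at 135, 185 and 173 CPM in iCM, 53.3 to 61.6 in aCM and 30.9 to 37.4 in nCM and CSC. Its partners had other patterns. Stim2 was at 80.5 to 85.3 CPM in iCM and 102 to 113 in CSC. Its neonatal libraries lay at 82.5 to 90.8 CPM and its adult ones at 34.3 to 44.8. The pore gene Orai1 had a log2 fold change of -0.17 ± 0.14 SE between iCM and CSC (edgeR adjusted p = 0.289). For Orai1 the colonies were called below the neonatal cells (-0.45 ± 0.14, adjusted p = 0.0232). They were called below the adult cells as well (-0.38 ± 0.14, adjusted p = 0.0269). Ehd3, a protein of endosomal recycling, was at 115, 199 and 187 CPM.

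Of 6 iron and solute transport genes, the ferritin heavy chain gene Fth1 was at 1734, 1993 and 1675 CPM in iCM, 689, 622 and 660.4 in CSC, 438, 492 and 549 in nCM and 316, 344 and 354 in aCM. The ferritin receptor gene Scara5 was at 99.5, 90.1 and 87.8 CPM in iCM and next highest in CSC, at 14.7 to 31.3. The heme transporter gene Slc48a1 was at 109, 108 and 93.4 CPM, and the macrophage iron transporter gene Slc11a1 at 9.80, 7.34 and 7.37. The summed erythroid markers were higher in nCM than in iCM. The part of erythroid cells in the levels was not tested.

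The 11 detoxification and redox enzymes included members of several families. The glutathione transferase gene listed as GSTA1 was at 123, 134 and 120.2 CPM in iCM, 4.35 to 5.37 in CSC, 0.842 to 1.33 in nCM and 4.61 to 7.08 in aCM. Its near-identical copy Gsta1, at 330.5 to 358 CPM in iCM, was set aside by name, and reads may be split between them. The flavin monooxygenase gene Fmo6 was at 6.01, 5.89 and 5.38 CPM in iCM, 1.39, 1.07 and 1.18 in aCM, 0.115, 0.0931 and 0.154 in nCM and 0.0864, 0.0825 and 0.254 in CSC. Adult libraries were thus next to the colonies, and nCM and CSC overlapped.

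Aldehyde oxidase genes Aox1 and Aox4, which lie close together with 1 gene between them in the RefSeq map, both qualified. Aox1 was at 230.4, 170 and 186 CPM in iCM and at 63.9 in CSC1, with the other CSC cultures at 25.6 and 19.9. Aox4 was at 11.5, 7.15 and 7.69 CPM in iCM. Of the sulphotransferase genes, Sult1a1 was at 164, 128 and 110.3 CPM and Sult5a1 at 10.2, 11.9 and 10.2. Prdx6, a peroxiredoxin that also repairs oxidised phospholipids, was at 770, 789 and 815 CPM in iCM and 113 to 214 in every other library. Prdx5 lay the other way between CSC and iCM, at 677 to 973 CPM in CSC and 92.2 to 101 in iCM. Glutaredoxin (Glrx) was at 233, 221 and 197 CPM in iCM, then 53.3 to 72.4 in CSC, 16.2 to 19.7 in nCM and 6.26 to 8.70 in aCM.

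Amino acid and other metabolic enzymes numbered 9. Glutamine synthetase (Glul), which makes glutamine from glutamate and ammonia, was at 1420.0, 1344 and 1236 CPM in iCM, 255, 357 and 262 in CSC, 213, 232 and 232 in nCM and 216, 208 and 224 in aCM. Cysteine dioxygenase (Cdo1), which starts cysteine breakdown towards taurine, was at 83.8, 59.2 and 54.1 CPM in iCM, 8.56 to 10.6 in nCM, 6.12 to 7.61 in aCM and 0.301 to 0.399 in CSC. The fatty acyl-CoA synthetase gene Acsbg1 was at 40.5, 70.8 and 67.9 CPM against 0.338 to 1.84 elsewhere, a ratio of 22.0. Tdo2, the hepatic enzyme that opens the tryptophan ring, was at 2.83, 8.47 and 10.9 CPM against at most 0.693. The ceramidase gene Acer2 was at 161, 161 and 132 CPM.

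The lipid droplet and insulin group was small and low. Perilipin 1 (Plin1), the coat protein of adipocyte droplets, was at 3.27, 2.46 and 2.27 CPM in iCM against at most 0.662. Cidec, which fuses droplets, was at 4.01, 2.51 and 2.78 CPM against at most 1.10. Adipoq, set aside by name, was at 9.16, 5.49 and 6.33 CPM in iCM and at 0.0746 to 1.35 elsewhere. The 7 adipocyte markers summed to 113, 75.0 and 73.7 CPM in iCM and to 59.5 to 108 in CSC, so the sums of these groups overlapped. Of the 7, Plin1, Cidec, Cfd and Retn are among the 92 genes. The remaining 3 are Adipoq, which met both conditions of the choice as well, Lep, at no more than 1.87 CPM in any library, and Pparg. Pparg, the nuclear receptor of adipocyte differentiation, was at 41.1, 26.8 and 28.2 CPM in iCM, 56.9 to 106 in CSC, 18.7 to 24.9 in nCM and 10.1 to 17.5 in aCM. Plin1, Cidec, Cfd and Retn were each highest in iCM1, as was the marker sum. The part of adipocytes in these levels was not tested.

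Of the 4 adipocyte markers among the 92 genes, Cidec and Plin1 hold a C/EBP core in their upstream window and Cfd and Retn do not. The windows of the first pair are shown because they hold this core, TTGCNNAA, the site of the factor family that drives adipocyte genes. They lie at chr4:148137066-148137365 and chr1:143086099-143086398 in GRCr8 (RefSeq), both on the - strand, and are written 5′ to 3′ on the gene's strand with the core in capitals.
Cidec: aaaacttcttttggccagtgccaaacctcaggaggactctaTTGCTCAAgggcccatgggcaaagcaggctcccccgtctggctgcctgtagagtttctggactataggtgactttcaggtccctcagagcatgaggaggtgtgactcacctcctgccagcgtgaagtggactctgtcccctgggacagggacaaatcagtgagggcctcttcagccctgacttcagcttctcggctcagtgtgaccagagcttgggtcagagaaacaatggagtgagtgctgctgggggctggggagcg
Plin1: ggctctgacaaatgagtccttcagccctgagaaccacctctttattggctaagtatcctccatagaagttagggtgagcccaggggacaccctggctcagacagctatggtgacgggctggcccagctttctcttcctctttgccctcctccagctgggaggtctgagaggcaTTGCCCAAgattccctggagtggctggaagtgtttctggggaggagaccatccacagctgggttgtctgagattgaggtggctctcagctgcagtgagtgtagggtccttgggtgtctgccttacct
The core, searched on both strands, was present in 12 of the 64 windows (18.8%) and in 10.5% of all windows. The TATA box stood in 11 of 64 (17.2% against 14.3%), the CCAAT box in 30 (46.9% against 37.7%) and the AP-1 element TGANTCA in 8 (12.5% against 7.33%). The myogenic E-box CAGCTG (17.2% against 15.1%), the MEF2 core, CTA and TAG with 4 bases of any kind between them (4.69% against 3.83%) and the nuclear receptor hexamer AGGTCA (15.6% against 15.7%) were about as frequent as in all windows.

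Signalling genes and transcription regulators numbered 12 and included some of the most abundant. Tsc22d3, the glucocorticoid-induced leucine zipper, was at 745, 810 and 780 CPM in iCM and at no more than 174 in the 9 other libraries. Errfi1, a feedback inhibitor of the EGF receptor, was at 172, 332 and 255 CPM in iCM against 15.3 to 76.4. Ndrg1, a gene of stress and hypoxia responses, was at 793, 669 and 560 CPM in iCM, 116 to 125 in nCM, 65.0 to 117 in CSC and 38.1 to 48.9 in aCM. Its relatives Ndrg2 and Ndrg4 were highest in aCM instead, Ndrg2 at 870 to 940 CPM against 212 to 230.0 in iCM.

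Rgs2, which shortens signalling by Gq-coupled receptors, was at 524, 406 and 394 CPM in iCM and 83.5 to 99.3 in nCM. Gamma-synuclein (Sncg) was at 156, 157 and 144.5 CPM in iCM. It varied from 0.62 to 14.9 CPM among the CSC cultures and reached 17.2 in aCM3. The scaffold gene Cnksr2 was at 29.8, 25.8 and 26.0 CPM against at most 4.66. The cell cycle linker gene Cables1 was at 44.0, 59.6 and 53.0 CPM in iCM, 16.5 to 20.66 in nCM, no more than 13.5 in aCM and 0.442 to 1.03 in CSC. The last group of 9 genes, for cytoskeleton, cilia and little studied proteins, ranged from 1.15 (Tceal5) to 78.5 CPM (Lmod1) in mean colony level.

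**Figure D2:**
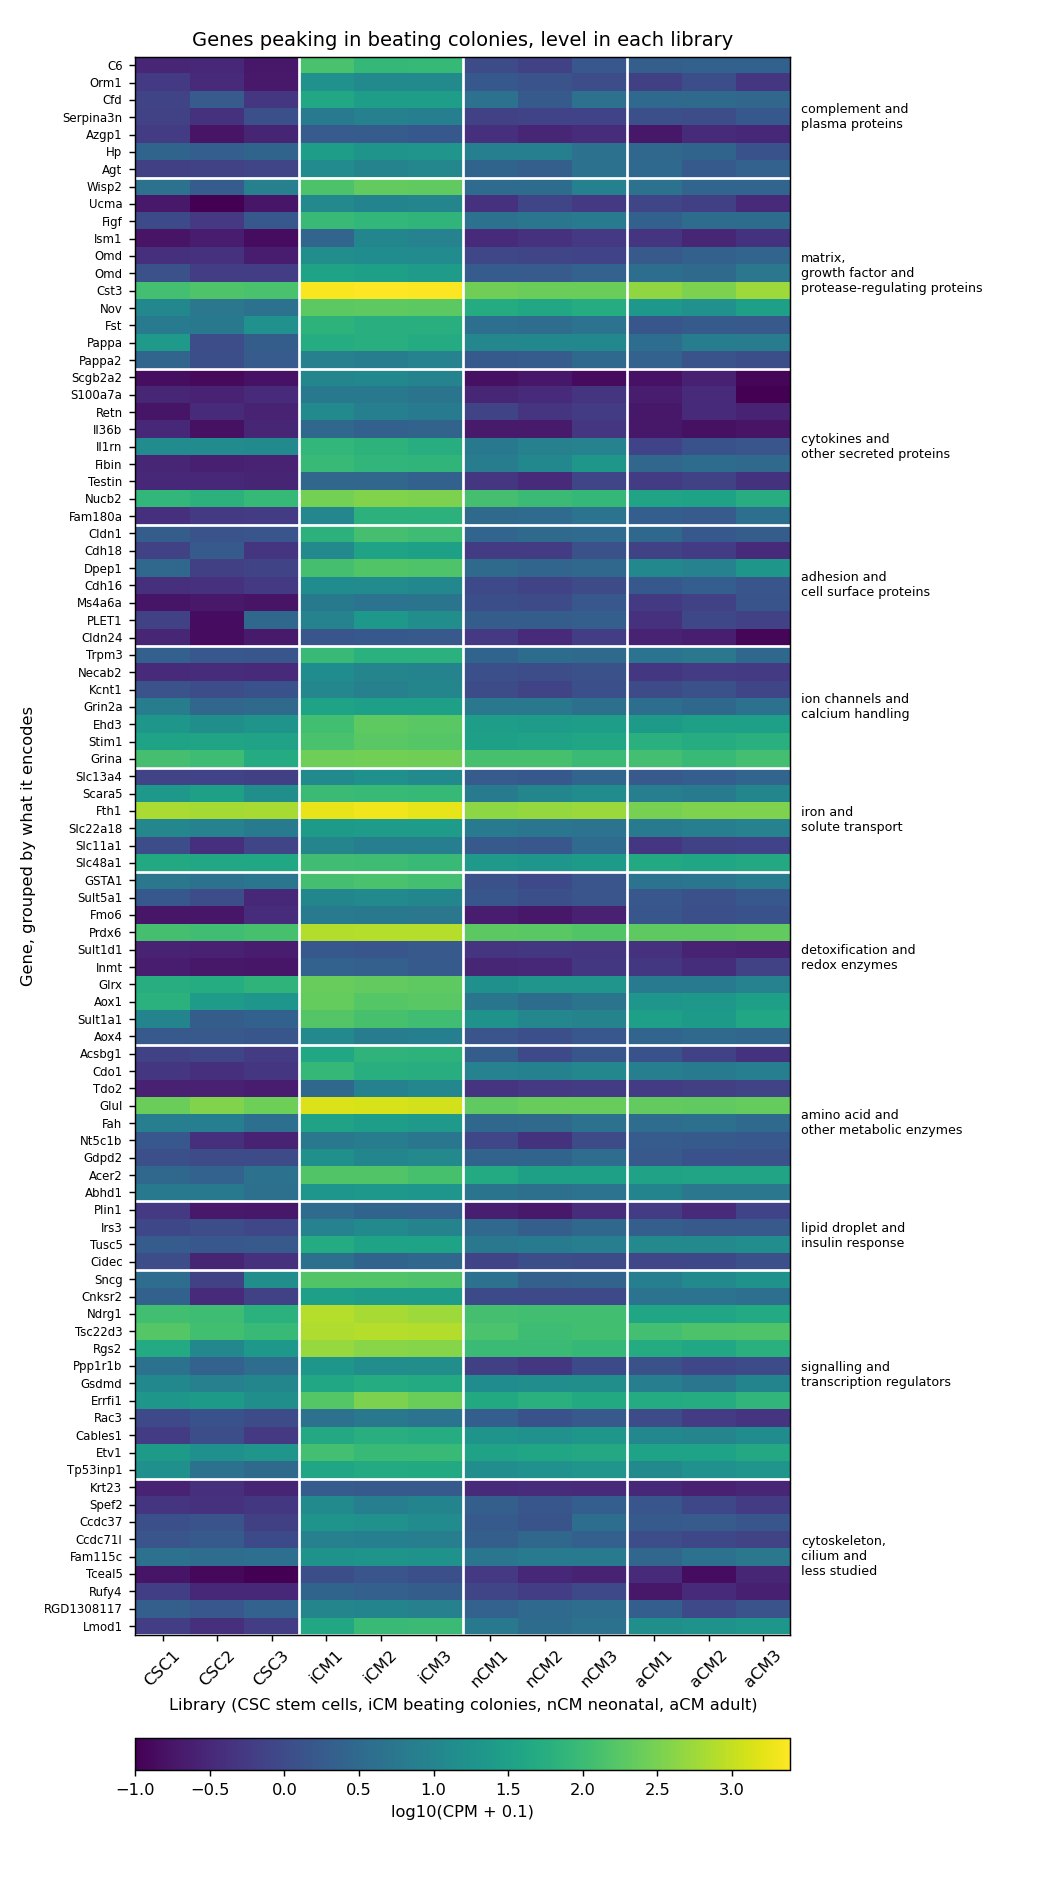
Level of 91 of the genes in the 12 libraries as log10(CPM + 0.1), with genes grouped by what they encode and ordered by margin within a group, and white lines between groups of libraries and genes. Every row is brightest in the 3 iCM columns, as the choice of genes requires, while the order of CSC, nCM and aCM differs from row to row.

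The colony libraries were farther apart on these genes than on genes in general. The highest colony library was a median of 1.31 times the lowest for the 92 genes, against 1.13 for the 13740 genes with a mean colony level of at least 1 CPM. For 20 genes the ratio was at least 1.5 and for 7 at least 2. Library iCM1 was the highest of the 3 for 48 genes (52.2%, against 43.4% of the 13740) and the lowest for 30 (32.6% against 30.6%), while iCM3 was the highest for 7 (7.61% against 24.7%). Fam180a, a little studied secreted protein, differed most, at 10.7 CPM in iCM1 and 66.5 and 67.3 in iCM2 and iCM3. The smooth muscle leiomodin gene Lmod1 was at 42.3, 93.7 and 99.4 CPM, and the placental surface antigen gene PLET1 at 9.11, 21.7 and 14.7. Of the 8 genes that varied most, Fam180a, Ism1, Tdo2, Cdh18, PLET1, Lmod1 and Errfi1 were lowest in iCM1, the library with few skeletal muscle transcripts, and Retn was highest there. The part of skeletal muscle cells in this spread was not tested.

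**Figure D3:**
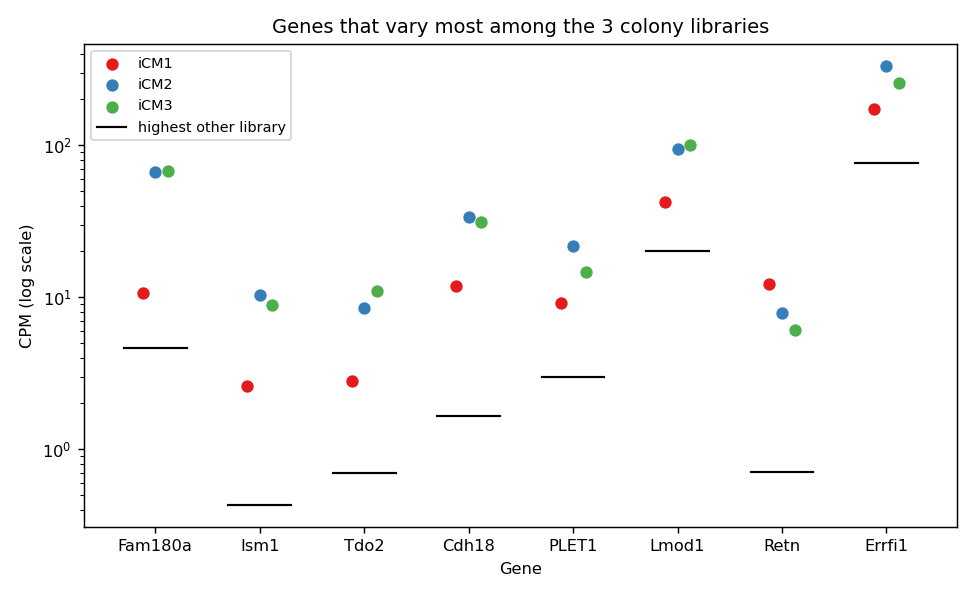
CPM on a log axis in iCM1, iCM2 and iCM3 for the 8 genes with the largest ratio of highest to lowest colony library, with the highest of the 9 other libraries as a black line. The iCM1 point is the lowest for 7 genes, and the highest library was 6.31 times the lowest for Fam180a and 1.93 times for Errfi1.

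Pathway lists show what else moved around these genes. Each list is described by its genes outside the 92, tested with edgeR. Fkbp5 and Adipoq met both conditions of the choice before they were set aside by name, so they are left out of these counts and their colony levels are a description. Of all 17242 genes tested, 31.4% were called between iCM and nCM (18.3% higher and 13.1% lower in iCM), 66% between iCM and CSC (34.8% and 31.2%) and 63.1% between iCM and aCM (33% and 30.1%). The median log2 fold changes of all genes were -0.02, 0.08 and 0. Of 21 further glucocorticoid response genes, 9 were higher and 0 lower in iCM than in nCM, 15 and 2 against CSC, and 9 and 6 against aCM, with medians of 0.56, 1.82 and 0.39. Sgk1, Hif3a, Hsd11b1 and Foxo3 were higher in all 3 comparisons, a call that 2.73% of all genes met. Fkbp5, a cochaperone of the receptor, was at 522, 539.7 and 496 CPM in iCM, 158 to 191 in CSC, 36.2 to 44.3 in aCM and 23.5 to 31.0 in nCM. Hsd11b1, which regenerates active glucocorticoid, was at 112, 134 and 129.9 CPM in iCM and 11.4 to 15.4 in nCM (log2 fold change 3.34 ± 0.29 SE, adjusted p = 3.34e-06). Tsc22d3, Errfi1 and Glul are the members of this list among the 92 genes.

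Of 28 further adipocyte genes, 14 were higher and 2 lower in iCM than in nCM, 14 and 8 against CSC, but 6 and 16 against aCM. Cebpa, a factor of adipocyte differentiation, was higher in all 3 comparisons, at 27.7, 19.2 and 20.5 CPM in iCM, 6.68 to 15.3 in CSC, 3.12 to 4.78 in nCM and 0.321 to 0.849 in aCM. Plin4 was at 116, 80.9 and 78.1 CPM in iCM, 2.12 to 2.58 in nCM and 259 to 331 in aCM, so it was higher than in nCM (5.37 ± 0.25, adjusted p = 1.88e-08) and lower than in aCM (-2.02 ± 0.21, adjusted p = 2.12e-06). Lipe and Elovl6 were the 2 lower genes against nCM (-0.38 ± 0.13 and -0.44 ± 0.14, adjusted p = 0.0429 and 0.0274).

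Of 21 further complement and acute phase genes, 5 were higher and 4 lower in iCM than in nCM, 12 and 0 against CSC, and 2 and 10 against aCM. C1s (4.26 ± 0.61, adjusted p = 0.000248) and C1r (3.87 ± 0.32, adjusted p = 2.17e-06), proteases that start the classical pathway, were higher than in nCM. Both were lowest in iCM1, at 40.1 CPM against 260.4 and 215 for C1s and at 352 against 772 and 706 for C1r. C1qa was lower than in nCM (-1.36 ± 0.24, adjusted p = 0.00109), beside the lower leukocyte markers of iCM; the part of leukocytes was not tested.

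Of 30 further cartilage and bone genes, 5 were higher and 3 lower in iCM than in nCM, 18 and 5 against CSC, and 9 and 6 against aCM. Ogn, the relative of Omd, was higher than in nCM (1.84 ± 0.25, adjusted p = 0.000175), while Bmp4 was lower (-1.19 ± 0.19, adjusted p = 0.000537). Spp1, which encodes osteopontin, was at 2029, 1453 and 1351 CPM in iCM, 14.3 to 45.5 in nCM and 10.6 to 18.4 in aCM, but at 6951, 9814 and 7218 in CSC. The colonies thus lay above the neonatal cells (adjusted p = 6.61e-07) and below the stem cells (-2.42 ± 0.36, adjusted p = 5.66e-05). Of 9 further tendon genes 0 were higher and 1 lower in iCM than in nCM, Tnmd (-1.39 ± 0.50, adjusted p = 0.0496). The same genes were higher for 8 and lower for 0 against CSC, and 3 and 2 against aCM.

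Among 40 further growth factor genes, 11 were higher and 8 lower in iCM than in nCM, 24 and 12 against CSC, and 15 and 12 against aCM. Fgf7 was at 31.1, 23.3 and 22.0 CPM in iCM, 0.166 to 0.386 in nCM and 38.7 to 57.9 in CSC. Its level in iCM was above that in nCM (6.79 ± 0.32, adjusted p = 1.84e-08) and below that in CSC (-1.03 ± 0.21, adjusted p = 0.000743). Of 28 further peptide hormone genes 5 were higher and 6 lower in iCM than in nCM, 15 and 2 against CSC, and 9 and 10 against aCM. The number of higher peptide hormone genes against nCM was 2 to 3 without iCM2, iCM3 or any 1 nCM library, and Gal, at 1.66, 105 and 106 CPM in the colonies, was the largest. Of 18 keratin and junction genes 2 were higher and 2 lower in iCM than in nCM, 9 and 2 against CSC, and 2 and 6 against aCM.

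A further 6 lists hold none of the 92 genes. The 31 skeletal muscle development genes were higher in iCM for 25 and lower for 0 against nCM, 30 and 0 against CSC, and 18 and 4 against aCM. For 20 of those 25 higher genes, however, iCM1 was at or below the highest nCM library. The muscle factor gene Myog, for one, was at 0.305 CPM in iCM1, 48.4 in iCM2 and 54.2 in iCM3, against 0.182 to 0.335 in nCM. Of 25 genes of muscle stretch and hypertrophy, 20 were higher and 0 lower than in nCM, 22 and 0 than in CSC, and 1 and 22 than in aCM. The summed cardiomyocyte markers given above lay in the same order, with iCM above nCM and CSC and below aCM, and their part in these counts was not tested. Ankrd1, a stretch-responsive gene of heart muscle, was at 318, 426 and 507 CPM in iCM and 95.6 to 206 in nCM (1.59 ± 0.31, adjusted p = 0.00228). Of 22 interferon response genes, 3 were higher and 11 lower in iCM than in nCM, 13 and 5 against CSC, and 1 and 19 against aCM. The antiviral gene Rsad2 was lower than in nCM (-1.39 ± 0.26, adjusted p = 0.00183), beside the lower leukocyte markers given above, whose part was not tested. Rsad2 was also the 1 gene of the list higher in iCM than in aCM (0.65 ± 0.27, adjusted p = 0.0483). It was higher than in CSC as well (6.21 ± 0.37, adjusted p = 6.78e-09).

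Of 19 prostaglandin and eicosanoid enzyme genes, 2 were higher and 8 lower in iCM than in nCM, 13 and 2 against CSC, and 3 and 8 against aCM. Of 27 neural and Schwann cell genes, 2 were higher and 6 lower than in nCM, 16 and 6 than in CSC, and 7 and 10 than in aCM. Of 22 solute carrier genes, 8 were higher and 2 lower than in nCM, 15 and 2 than in CSC, and 9 and 8 than in aCM. The insulin-responsive glucose transporter gene Slc2a4 was at 29.0, 42.7 and 40.1 CPM in iCM, 3.93 to 4.52 in nCM and 662 to 877 in aCM, higher than in nCM (3.16 ± 0.18, adjusted p = 1.03e-07) and lower than in aCM (-4.62 ± 0.19, adjusted p = 9.43e-10).

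The groups outside the colonies entered the choice of genes only through their highest library, so comparisons among them were tested, with all 12 libraries in 1 edgeR fit over 17242 genes and Benjamini-Hochberg adjustment. The filter on low counts read all 12 libraries, so a gene could pass it through the colonies on which it was chosen. The fit was therefore repeated on the 9 other libraries alone with their own filter, an alternative chosen after seeing the data. There 85 of the 92 genes passed, and Scgb2a2, S100a7a, Il36b, Krt23, Azgp1, Cldn24 and Tceal5 did not. Between adult and neonatal cells, 29 of the 92 genes were higher and 18 lower in aCM in the fit of 12 libraries, against a background of 62.7% of all genes called, 30.8% higher and 31.9% lower. In the fit of 9 libraries, 30 of the 85 were higher and 16 lower. That is 54.1% called against 60.3% of all 16905 genes, of which 29.8% were higher and 30.5% lower. The median log2 fold change of the 85 there was 0.25 against -0.01 for all genes, a description of the genes that passed. With all 12 libraries and scaling by total counts the split turned to 21 higher and 25 lower, with the median of all genes at -0.35.

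Enzymes of detoxification were among the largest values on the higher side. Of the 11 detoxification and redox genes, 8 were higher in aCM and 1 lower, or 7 and 1 in the fit of 9 libraries. Of all genes, 30.8% were higher and 31.9% lower, or 29.8% and 30.5% in the fit of 9 libraries. The group is small, and its split was not followed under other scalings. Fmo6 had a log2 fold change of 3.73 ± 0.38 SE (adjusted p = 1.42e-06). Aox1 (2.79 ± 0.35, adjusted p = 1.19e-05) and GSTA1 (2.68 ± 0.18, adjusted p = 3.52e-08) followed, with no overlap between the groups for any of them. Cnksr2 was higher as well (2.71 ± 0.48, adjusted p = 0.000251). On the lower side were Il1rn (-2.48 ± 0.24, adjusted p = 8.87e-07), the autophagy regulator gene Rufy4 (-1.76 ± 0.46, adjusted p = 0.00424), Fibin (-1.69 ± 0.30, adjusted p = 0.000229) and Slc11a1 (-1.56 ± 0.41, adjusted p = 0.00486). Cldn24, called lower in the fit of 12 libraries, held 4, 3 and 0 counts in aCM and 19, 9 and 19 in nCM and passed the filter only through the colonies, so it is not read as a difference. Of the 6 cytokines and other secreted proteins that passed the filter in the 9 libraries, 0 were higher and 4 lower in aCM in that fit.

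Between neonatal cells and stem cells, 46 of the 92 genes were higher and 12 lower in nCM, against 72.1% of all genes called, 36.7% higher and 35.4% lower. In the fit of 9 libraries 44 of the 85 that passed were higher and 12 lower, 65.9% against 70.3% of all genes. Of all genes there, 36% were higher and 34.3% lower. Fibin had the largest value, from 0.144 to 0.193 CPM in CSC to 6.81 to 21.3 in nCM (6.05 ± 0.41, adjusted p = 2.15e-08). Cables1 (4.58 ± 0.25, adjusted p = 2.84e-09), Cdo1 (4.50 ± 0.21, adjusted p = 5.80e-10) and the membrane protein gene Ms4a6a (3.60 ± 0.41, adjusted p = 3.74e-06) were also higher. Lower in nCM were Aox1 (-3.19 ± 0.35, adjusted p = 2.60e-06), the dopamine-regulated phosphatase inhibitor gene Ppp1r1b (-2.62 ± 0.29, adjusted p = 2.79e-06), GSTA1 (-2.33 ± 0.18, adjusted p = 7.33e-08), Glrx (-1.88 ± 0.16, adjusted p = 2.14e-07) and Fst (-1.45 ± 0.32, adjusted p = 0.00113). Of the 6 iron and solute genes, 2 were higher and 4 lower in nCM. Fth1 (-0.58 ± 0.13, adjusted p = 0.000978), Scara5 and Slc48a1 were among the lower. Between aCM and CSC, 1 of these genes was higher and 2 were lower in aCM. With so few genes, the split is not read as a trait of the group.

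Between adult cells and stem cells, 49 were higher and 9 lower in aCM, against 78% of all genes called, 43.2% higher and 34.8% lower. In the fit of 9 libraries these counts were 44 and 9, which is 62.4% of the 85 against 76.8% of all genes. Of all genes there, 42.5% were higher and 34.3% lower. Lmod1 (5.49 ± 0.39, adjusted p = 2.03e-08), Cdo1 (4.44 ± 0.21), Fibin (4.36 ± 0.44) and Cables1 (4.24 ± 0.26) were among the higher. Il1rn (-3.39 ± 0.24, adjusted p = 1.66e-08), Glrx (-2.92 ± 0.17), Fst (-2.50 ± 0.37), Ppp1r1b (-1.72 ± 0.29) and Scara5 (-1.34 ± 0.28) were lower. The comparisons with CSC share those libraries. Some of the named genes were nearly silent in stem cells and present in heart cells (Cdo1, Cables1, Fibin). Others were next highest in the stem cells (Il1rn, Glrx, Fst, Scara5). Further genes followed neither pattern, such as Wisp2, whose groups did not separate, and Fmo6, which was next highest in aCM.

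**Figure D4:**
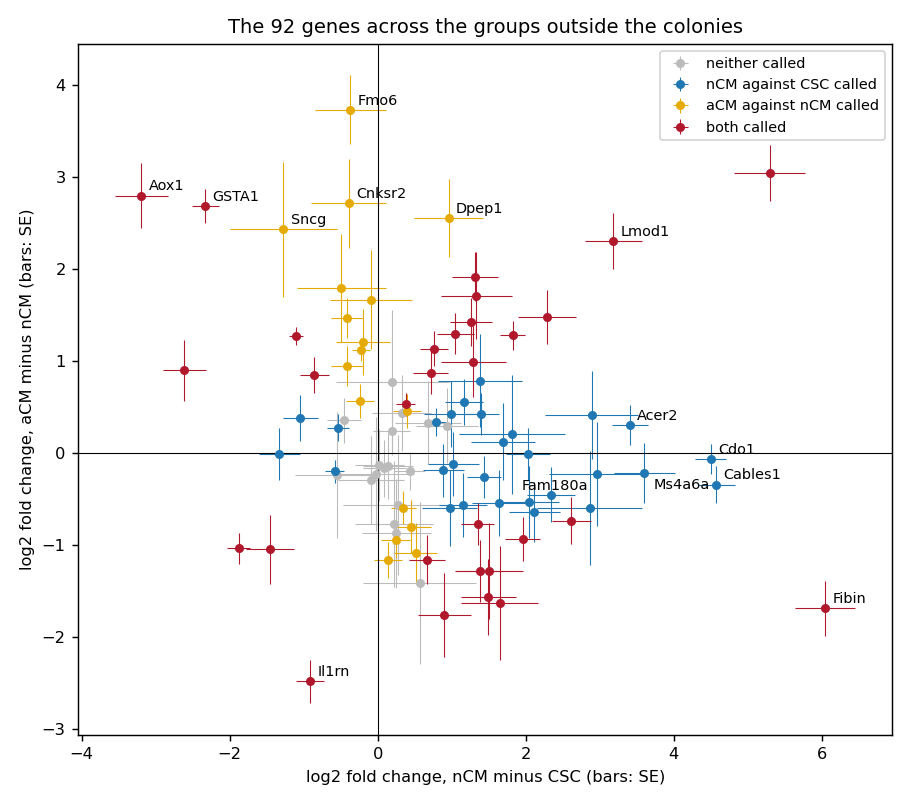
Log2 fold change of aCM against nCM (vertical) and of nCM against CSC (horizontal) for the 92 genes, with standard errors as bars and colours for the calls at an adjusted p of 0.05. Both axes share the nCM libraries, so the values on them are not independent; Aox1 and GSTA1 lie at the upper left and Fibin at the lower right.

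The 3 further stem cell clones offer libraries that the choice did not use, 82 of the 92 genes being matched by symbol in the clone table. Library CSC1 stands in that table as clone cCSC4 and was not compared again. The labels and headers do not say how the authors made the values of cCSC1 and cCSC2, which lie on the scale of counts. With 1 library per clone there is no test, and clone and library cannot be told apart. For 61 of the 82 genes, the lowest colony library was at least 2 times every clone, and 13.1% of the 15531 genes found in both tables met that with a colony level of at least 1 CPM. The choice of genes used the same lowest colony level, so nothing is read from this count. For 12 the highest clone came closer than that without passing the lowest colony library, and for 9 it passed it. The highest clone was cCSC2 for 60 genes, cCSC3 for 12 and cCSC1 for 10. Apart from the 13.1% above, these counts were not made for all genes. They are therefore not read as a trait of these genes.

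In cCSC2, Pappa was at 329.7 CPM, with 25.4 in cCSC1, 10.9 in cCSC3 and at most 58.0 in the colonies. Dpep1 was at 244.8 CPM in cCSC2 against 1.98 and 1.16 in the other clones and 123 to 161 in the colonies. Ism1 was at 109 CPM in cCSC2, 0.377 in cCSC1 and 0.0731 in cCSC3. These 3 genes were thus higher in 1 stem cell clone than in any colony library. Pappa2 (41.9 CPM), Scara5 (112 CPM) and Tp53inp1 (52.2 CPM) in cCSC2 exceeded every colony library as well. Their highest colony levels were 8.59, 99.5 and 47.5 CPM. Il1rn (60.9 CPM) and narrowly Serpina3n (6.80 CPM) in cCSC2 exceeded only their lowest colony library. Fmo6 was different, at 4.48, 3.75 and 9.11 CPM in the 3 clones against 0.0825 to 0.254 in the CSC cultures and 5.38 to 6.01 in the colonies. Its level in cCSC3 was thus above every colony library. Apart from Pappa and Dpep1, the genes with the highest clone levels stayed below the colonies in each clone. Fth1 was at 659 to 995 CPM, Cst3 at 120.3 to 166, Prdx6 at 122 to 174, Tsc22d3 at 99.9 to 162, Grina at 109 to 154.5 and Nucb2 at 76.5 to 135.

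**Figure D5:**
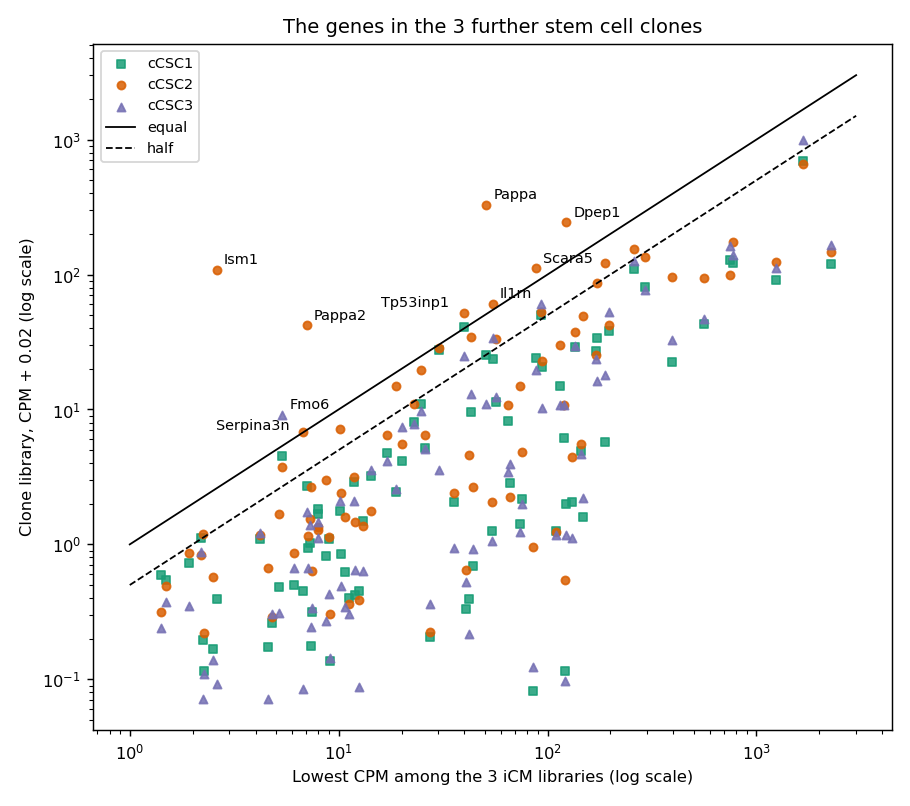
CPM + 0.02 in the clone libraries cCSC1, cCSC2 and cCSC3 against the lowest iCM CPM for the 82 matched genes, both on log axes, with lines at equality and where the colony level is 2 times the clone. The 9 labelled genes have a clone above the lowest colony library; Pappa, Dpep1, Ism1 and Pappa2 stand clear of the line in cCSC2.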

How the data were processed

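RNA was extracted with TRIzol, accepted at an integrity number of at least 8, depleted of ribosomal RNA with Ribo-Zero and made into TruSeq libraries, per the labels' protocols. The authors deposited estimated counts per gene for 12 libraries (3 each of CSC, iCM, nCM and aCM) and a second table for the clones, with estimated counts for cCSC3 and CSC1 and a signal of unstated making for cCSC1 and cCSC2. The authors also deposited log2 values centred on each gene, as read from the values, which were not used. DESeq is named in the submitters' processing notes. Aligner, counter, build and use of strand in counting: not given in the sources used here. Antisense and overlapping genes are therefore uncertain.

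Levels are CPM on the deposited estimated counts, with 1 line that names no gene left out. For tests the estimated counts were rounded to whole numbers, filtered with filterByExpr (minimum count 10; 17242 genes kept, 9034 removed), scaled by TMM and fitted with edgeR's quasi-likelihood test over all 12 libraries without a replicate term, with Benjamini-Hochberg adjustment at 0.05. Python 3.11.15 computed the levels, and R 4.3.3 ran edgeR 4.0.16 with limma 3.58.1 and, as an alternative, DESeq2 1.42.0. The fits were tested on simulated data. Replicates differed by more than sampling noise (lowest median chi-square 1.99 against 0.455 expected). Promoter windows are from RefSeq (GRCr8), matched for 64 of 91 symbols without regard to case, 2 of them by synonym. GSTA1 thus received the window of Gsta1, which is also the symbol of the copy set aside by name. That window counts among those with a TATA box, a CCAAT box and a C/EBP core.

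The members and lists were chosen with earlier results of these data known. Genes were named by rule: the largest margins, the highest levels, the largest colony spread, the edge of the choice, the largest calls in each other comparison, the highest clone levels, and the members and largest calls of each pathway list. Relatives and some further genes were named after their values were seen. Alternatives were other scalings, filters and tools, other thresholds of the choice, a replicate term, fits of 2 groups alone, leaving out each library and, chosen after seeing the data, the 9 libraries outside iCM alone. The values of 1 of the 92 genes are not reported here, although it is included in the counts.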

Additional observations from a re-analysis of the deposited data

How the results depend on the processing

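The choice of genes moved with its settings. It took 168 genes at 1.5 times, 51 at 3 times, 35 at 4 times and 257 when group means replaced the extremes. It took 83 genes under TMM or RLE scaling, 80 of them shared with the 92; Stim1, Cidec, Errfi1, Aox4 and Lmod1 were among the 12 lost under TMM. Leaving out 1 library gave 92 to 186 genes, the highest without iCM1, which thereby sets which genes qualify. Without single libraries, genes called between iCM and nCM numbered 3494 to 5079 against 5412. The same range was 9870 to 10708 against 10815 for aCM and nCM, 11849 to 12214 against 12436 for nCM and CSC, and 12737 to 13409 against 13445 for aCM and CSC. Among the 92 genes, 23 to 28 were then higher in aCM than in nCM, 38 to 48 in nCM than in CSC and 41 to 49 in aCM than in CSC. The cause of these shifts was not tested, although fewer libraries entered each fit. Single genes were followed only for the largest calls among the 92 genes in the comparisons outside iCM. None of these changed sign under any alternative run, although 4 of their values were then not called. The signs of the other genes named here were not followed. With total counts the split of the 92 genes between aCM and nCM turned from 29 higher and 18 lower to 21 and 25. Replicate numbers did not pair the samples: correlations of same-numbered libraries ran from -0.199 to 0.0737 over 18 pairs. With a replicate block, 28 members were higher and 17 lower in aCM than in nCM, 45 and 12 in nCM than in CSC, and 47 and 9 in aCM than in CSC, and 4719 genes were called between iCM and nCM. Cldn24 gave no value in the fit of the 2 groups alone. Genes of a few counts, such as Scgb2a2 outside the colonies, cannot be ranked at this depth.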
